A study of Mus musculus with 12 samples.

Results

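Cdkn1a-expressing enteric glia were CD49b+ wells chosen by their Cdkn1a count: at least 2 UMIs (unique molecular identifiers, each standing for 1 captured RNA molecule) of Cdkn1a. A well entered if it held 1000 to 9999 UMIs, at least 500 genes and under 20% mitochondrial UMIs. Of 432 CD49b+ wells that met these limits, 88 (20.4%) had 2 or more Cdkn1a UMIs, out of 1150 wells of both sorting gates in the whole table. The comparison wells were the 243 wells of the same plates with 0 Cdkn1a UMIs, and 101 wells with exactly 1 UMI lay between. The wells were selected on the Cdkn1a counts, so its own level in them is a description and was not tested.

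The cells came from the longitudinal muscle and myenteric plexus of the intestine of adult C57BL/6 mice and were sorted into 96-well plates. Each CD49b+ plate held cells of 1 pool of 2 mice, with 6 mice per treatment. All CD49b+ cells, in both treatments, were sorted for the Dclk1-tdTom reporter, and all mice had received 3 mg tamoxifen at 8 or 9 weeks of age. In homeostasis (3 CD49b+ plates) tissue was taken 10 days later with no further treatment. The irradiated mice (3 CD49b+ plates) received 10.5 Gy on day 7 after tamoxifen, and tissue was taken 3 days after irradiation, also 10 days after tamoxifen. Tamoxifen was given at 8, 9 and 8 weeks for homeostasis replicates 1 to 3 and at 8, 9 and 9 weeks for irradiated replicates 1 to 3. The wells therefore sample only glia in which the Dclk1 reporter had been switched on, and the labels do not say which promoter fragment or recombinase allele drove it.

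Cdkn1a encodes p21, an inhibitor of cyclin-dependent kinases that holds cells before DNA replication. It is a classical target gene of the transcription factor p53, which is stabilised after ionising radiation, and it is also switched on by p53-independent stress and growth-factor signals. Enteric glia are the supporting cells of the gut nervous system; they surround the neurons of the myenteric plexus and are mostly quiescent in adults.

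The Cdkn1a promoter window of RefSeq (GRCm38.p6, plus strand, 250 bases before to 50 after the gene start) was searched for the p53 half-site consensus, on both strands. Bases outside such windows were not searched, so sites further from the gene start would be missed. The window around the annotated gene start (the gene lies at chr17:29090976-29100727, ENSMUSG00000023067.14) held 2 half-site matches, both before the start. They are shown in capitals over chr17:29090891-29090952:
Cdkn1a: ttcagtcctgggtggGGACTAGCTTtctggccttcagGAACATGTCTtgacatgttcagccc
A second Cdkn1a window, for a start further into the gene, held none. Of 32851 RefSeq windows of 300 bases, 8.36% held at least 1 match and 0.359% held 2 or more. Among 41 windows of the 29 genes of a list of 37 p53 targets that had a window, 11 (26.8%) held at least 1 match. The same Aen match lay in 2 overlapping windows and was counted in both. Windows of 3 of these targets whose counts are given further on are shown for comparison, on the minus strand with the match in capitals: Mdm2 at chr10:117710920-117710959, Bax at chr7:45467075-45467114 and Ccng1 at chr11:40755447-40755486.
Mdm2: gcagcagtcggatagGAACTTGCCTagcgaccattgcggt
Bax: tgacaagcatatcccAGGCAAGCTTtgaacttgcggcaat
Ccng1: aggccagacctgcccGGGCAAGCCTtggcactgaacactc
A match is a description of the letters only, and no binding was measured.

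The wells carried glial transcripts. Of the 88 Cdkn1a wells, 85 (96.6%) held a UMI of Sox10 (a glial transcription factor) or S100b (a calcium-binding protein), against 93.0% of wells at 0 Cdkn1a UMIs and 18.9% of the CD49b- wells, which are mostly neurons. Apoe, a lipid carrier, was found in 100% of the Cdkn1a wells, S100b in 87.5%, Gfap (a glial intermediate filament) in 81.8% and Sox10 in 51.1%. In wells at 0 the shares were 100%, 85.2%, 60.1% and 51.9%. These shares pool the treatments: 15 of 88 Cdkn1a wells and 170 of 243 wells at 0 were from homeostasis. The neuronal genes Snap25 or Elavl4 gave a UMI in 10 of 88 Cdkn1a wells (11.4%), in 5.76% of wells at 0 and in 99.6% of CD49b- wells. The sum of 10 neuron markers was 286 to 1142 CPM (UMIs scaled to a common library total) in the Cdkn1a wells of the 4 plates with at least 5 such wells and 452 to 971 CPM in their wells at 0; Elavl4 and Snap25, at 3 and 7 UMIs in all 88 wells, were near 0. All 8 macrophage, 5 lymphocyte, 5 epithelial, 3 mesothelial and 2 interstitial cell markers listed had 0 UMIs in the 88 Cdkn1a wells, Ptprc, Cd3e, Epcam and Kit among them, and the 4 erythroid markers had 1 UMI in all. Markers of other mesenchymal and vascular cells were found at low levels. On the same 4 plates (homeostasis replicate 1, then irradiated replicates 1 to 3), the 6 smooth muscle markers summed to 34.3, 171, 98.4 and 17.9 CPM in Cdkn1a wells and 126, 44.1, 24.4 and 19.5 CPM in wells at 0, with 3 of the 6, Myh11 among them, at 0 UMIs in the Cdkn1a wells. The 6 fibroblast markers, with Pdgfra and 2 more at 0 UMIs in the Cdkn1a wells, summed to 343, 128, 82.0 and 107 CPM against 116, 154, 60.9 and 117 CPM. The 4 pericyte markers summed to 103, 28.5, 16.4 and 17.9 CPM against 52.5, 0, 12.2 and 0 CPM. These sums rest on 3, 2, 1 and 1 UMIs against 5, 0, 1 and 0. The smooth muscle sum was thus higher in Cdkn1a wells on irradiated replicates 1 and 2, and the fibroblast sum on homeostasis replicate 1 and irradiated replicate 2. The pericyte sum, from these few UMIs, was higher in Cdkn1a wells on all 4 plates. Pecam1, of endothelium, had a UMI in 6 of 88 Cdkn1a wells (6.82%) and in 15 of 243 wells at 0 (6.17%), and 3 of the 5 endothelial markers, Cdh5 among them, were at 0 in the Cdkn1a wells. The part of these transcripts in the differences between classes was not tested. Dclk1, whose reporter was the sorting mark, had a UMI in 12.5% of Cdkn1a wells and 14.0% of wells at 0, and Itga2, which encodes CD49b, in 5.68% and 4.53%.

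Several libraries had features that touch the results. The 6 CD49b+ plates held 154993 to 245922 UMIs. Ctcfl UMIs sat in 1 well barcode on every plate: 214, 218 and 123 UMIs in homeostasis and 166, 103 and 127 in irradiated CD49b+ plates, with at most 3 in any other well. That well was a Cdkn1a well on homeostasis replicate 1 and irradiated replicate 3. The peptide genes Gal (irradiated replicate 2) and Cartpt and Grp (irradiated replicate 1) were high on 1 plate each, in wells with and without Cdkn1a alike. The 88 wells used 60 of the 96 well barcodes, 95 of which occurred on all 12 plates, and no barcode gave a Cdkn1a well on more than 4 plates.

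Most Cdkn1a wells came from irradiated mice. Of the 88, 73 (83.0%) were on the 3 irradiated plates and 15 on the 3 homeostasis plates, with 209 and 223 eligible wells. In homeostasis the plates had 12 of 81 wells (14.8%, 95% exact Clopper-Pearson interval 7.90 to 24.4), 2 of 70 (2.86%, 0.348 to 9.94) and 1 of 72 (1.39%, 0.0352 to 7.50). After irradiation they had 28 of 68 (41.2%, 29.4 to 53.8), 23 of 81 (28.4%, 18.9 to 39.5) and 22 of 60 (36.7%, 24.6 to 50.1). The lowest irradiated plate was above the highest homeostasis plate, so the groups did not overlap. The mean share was 6.35% ± 7.36 in homeostasis and 35.4% ± 6.48 after irradiation (SD, n = 3 plates each), a difference of 29.1 percentage points. The two-sided exact permutation p was 0.1, the smallest that 3 plates against 3 allow, so this design cannot reach 0.05. These intervals cover counting error only.

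**Figure D1:**
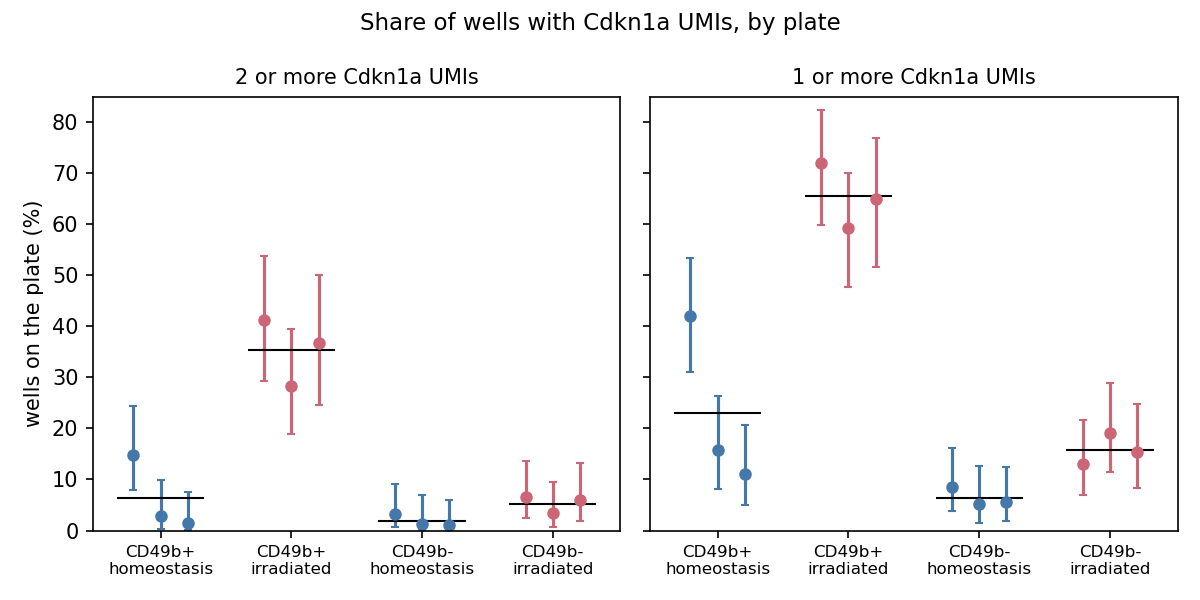
Percent of wells per plate with at least 2 (left) or at least 1 (right) Cdkn1a UMIs, for both sorting gates and treatments. Points are plates with exact 95% binomial intervals and black lines are means of 3 plates; the irradiated CD49b+ plates (28.4% to 41.2% at 2 or more) lie above the homeostasis CD49b+ plates (1.39% to 14.8%).

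Homeostasis replicate 1 stood apart from the other homeostasis plates. It held 12 of the 15 homeostasis wells with Cdkn1a, and without it the homeostasis mean rested on the 2 plates at 2.86% and 1.39%, with a difference of 33.3 points. Each plate's label also carries a number from 1 to 4 that restarts along the plates, which splits them into 3 sets: replicate 1 of each treatment, replicates 2 and 3 of homeostasis, and replicates 2 and 3 of irradiation. Only the first set held both treatments, and within it the share went from 14.8% to 41.2%. What the sets stand for is not given in the sources used here, and outside the first set they cannot be told apart from the treatment.

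The same order held at other thresholds. With 1 or more UMIs the homeostasis plates had 42.0%, 15.7% and 11.1% and the irradiated plates 72.1%, 59.3% and 65.0% of wells, means of 22.9% ± 16.7 and 65.4% ± 6.41. With 3 or more UMIs the means were 1.76% ± 0.613 and 21.0% ± 3.51. After each well was thinned to 1000 UMIs, to remove differences in depth, at least 1 Cdkn1a UMI remained in 22.2%, 8.57% and 4.17% of homeostasis wells and in 51.5%, 42.0% and 30.0% of irradiated wells. At each of these settings the treatments did not overlap and the exact permutation p was 0.1.

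The CD49b- wells, mostly neurons and taken with no upper limit on UMIs, had lower shares. They were deeper (median 7243 UMIs over 528 wells, against 2455 in CD49b+ wells), yet 1.87% ± 1.18 of them in homeostasis and 5.26% ± 1.67 after irradiation had 2 or more Cdkn1a UMIs (n = 3 plates each), and 6.41% ± 1.91 and 15.8% ± 3.06 had 1 or more. At both thresholds the irradiated CD49b- plates lay above the homeostasis CD49b- plates without overlap (exact permutation p = 0.1 each). Thinned to 1000 UMIs, 1.5% ± 1.62 and 2.67% ± 1.84 had at least 1, with overlapping plates (exact permutation p = 0.5). The CD49b+ wells thinned in the same way had 11.7% ± 9.41 and 41.1% ± 10.8. The homeostasis shares of replicates 2 and 3 at 2 or more UMIs, 2.86% and 1.39%, lay within the 1.10% to 3.23% of the deeper CD49b- homeostasis plates.

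Within the Cdkn1a wells the gene was low in most and high in a few. The median was 3 UMIs and the highest well had 12. Just inside the limit, 11 homeostasis and 29 irradiated wells had exactly 2 UMIs, and just outside it 38 and 63 wells had exactly 1. Wells with 4 or more UMIs numbered 2 in homeostasis, both at 6, while irradiated wells with 4 UMIs alone numbered 18. Over all eligible wells the Cdkn1a level was 293, 78.4 and 68.4 CPM on the homeostasis plates and 732, 622 and 551 CPM on the irradiated plates, means of 146 ± 127 and 635 ± 91.0 (4.33-fold; within the set of replicate 1, from 293 to 732 CPM). More cells with the transcript and more transcript per cell both enter this level.

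**Figure D2:**
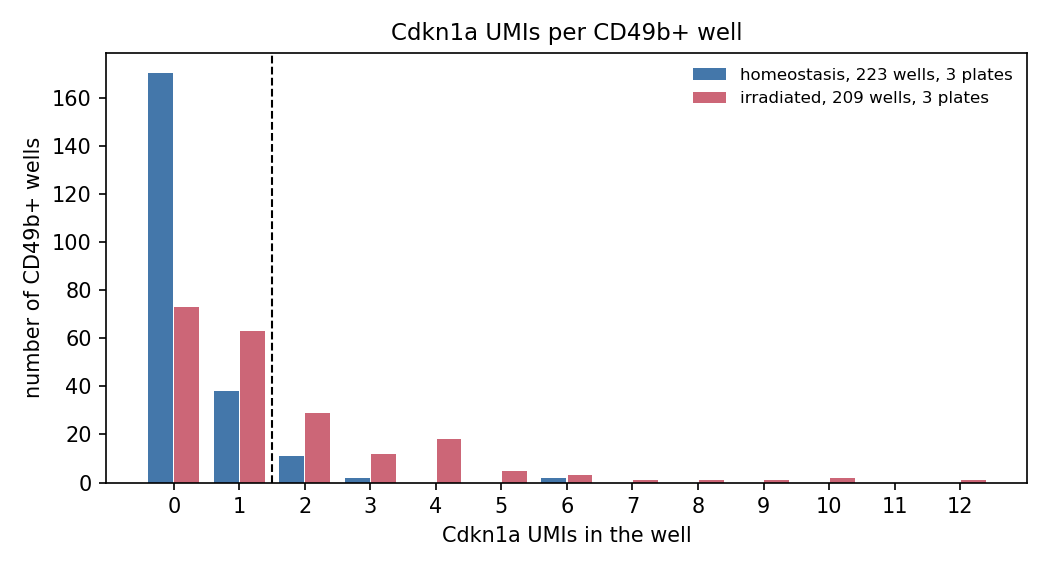
Number of eligible CD49b+ wells by Cdkn1a UMIs per well, homeostasis (223 wells) and irradiated (209 wells); the dashed line marks the limit of 2 UMIs. Homeostasis wells are mostly at 0 (170 wells) and irradiated wells are spread from 0 (73 wells) to 12 UMIs.

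Quality differed little between the classes, while depth differed most on homeostasis replicate 1. There, 6 of 12 Cdkn1a wells and 5 of 47 wells at 0 had 2500 or more UMIs, and the median genes per well were 1432.5 and 1221. The rule counts UMIs, so it is not independent of depth. The median well had 2549 UMIs at 2 or more Cdkn1a UMIs, 2458 at 1 and 2385 at 0. On the 4 plates with at least 5 Cdkn1a wells the median was 2461, 2533, 2712 and 2435 UMIs in Cdkn1a wells (homeostasis replicate 1, then irradiated replicates 1 to 3) and 1952, 2315, 2566 and 2503 in wells at 0. Mitochondrial UMIs had a median of 1.94% to 2.13% in the former and 2.09% to 2.34% in the latter.

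The other genes of the Cdkn1a wells were then compared with the wells at 0 on the same plate. Counts were summed per plate and class and fitted with edgeR's quasi-likelihood test with the plate as a block, over 4 plates (12, 28, 23 and 22 Cdkn1a wells against 47, 19, 33 and 21 wells at 0); homeostasis replicates 2 and 3, with 2 and 1 Cdkn1a wells, gave no sum and were left out. Of 1061 genes tested, 0 (0%) passed an adjusted p of 0.05 in either direction, while 52 had an unadjusted p under 0.05. DESeq2 also called 0, with 10 at an unadjusted p under 0.05. In simulated counts of the same shape (990 genes run), the test recovered 95 of 100 genes with a 4-fold change and 68 of 100 with a 2-fold change. The lowest adjusted p was 0.975, and 95% of the tested genes had a log2 difference within 0.59 of 0.

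Among the genes with the lowest p, none of which passed, 2 immediate early or stress-induced growth regulators were higher in Cdkn1a wells. Gadd45g, a growth-arrest gene, stood at 2297, 2041, 1936 and 2005 CPM in the Cdkn1a wells of the 4 plates and at 1943, 1898, 1097 and 800.1 CPM in the wells at 0, higher on each plate; the log2 difference was 0.59 (SE 0.205; edgeR adjusted p = 0.975). Btg2, an antiproliferative gene and p53 target, stood at 3429, 2897, 3462 and 2954 CPM against 2962, 3067, 1670 and 1503 CPM, higher on 3 of 4 plates, with a log2 difference of 0.52 (SE 0.189; adjusted p = 0.975). Irradiated replicate 1 was the exception for Btg2, and without that plate the edgeR adjusted p was 0.0381 at a log2 difference of 0.72. That fit leaves out the plate that went the other way. The difference was 0.62 without homeostasis replicate 1, 0.36 without irradiated replicate 2 and 0.39 without irradiated replicate 3. For these 3 fits the edgeR adjusted p was 0.909 or above. Gas7 (log2 difference 0.82, SE 0.236), Spry2, an inhibitor of receptor tyrosine kinase signalling (0.87, SE 0.288), and Litaf (0.89, SE 0.325) completed the 5 with the lowest p among genes higher in Cdkn1a wells. The 5 with the lowest p among lower genes were Pla2g7 (-0.91), Sec61a1, a channel subunit of the endoplasmic reticulum (-0.41), Chchd1 (-1.26), Snrpb, a splicing protein (-0.83), and Hcfc1r1 (-0.71).

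**Figure D3:**
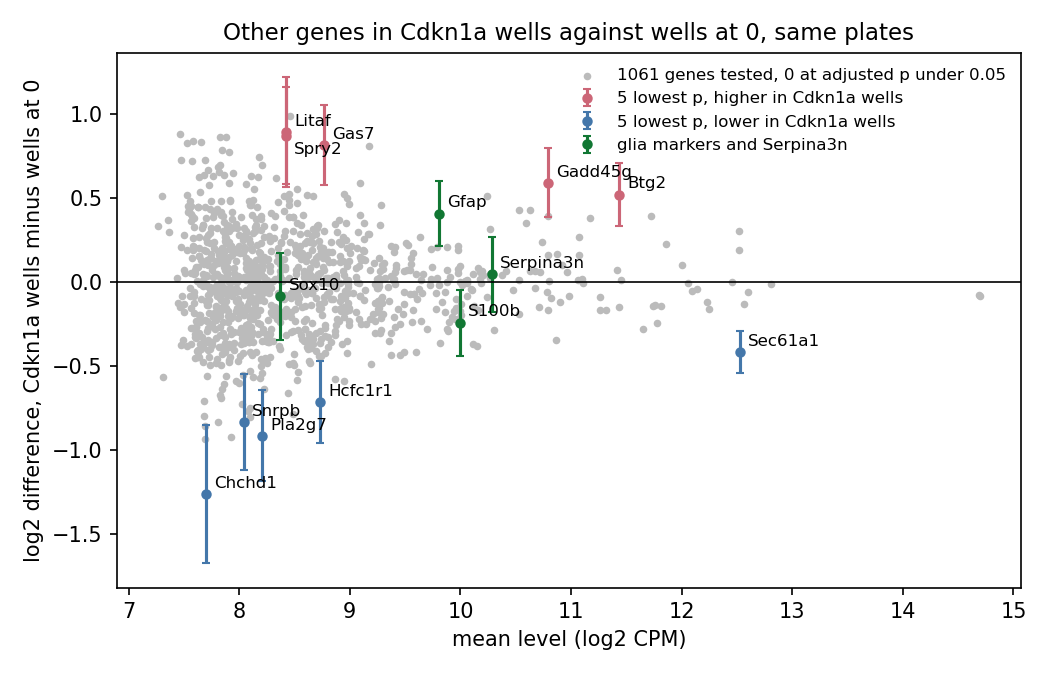
Log2 difference between Cdkn1a wells and wells at 0 on the same plates against mean level (log2 CPM) for 1061 genes; bars on named genes are standard errors. None passed the adjusted p of 0.05; Gadd45g and Btg2 lie above 0 at high level, Sec61a1 below.

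Glial and reactive genes were close in both classes. Of 15 glia markers 12 were tested, 0 passed in either direction, and their median log2 difference was -0.16, beside -0.01 over all 1061 genes. S100b had a log2 difference of -0.24 (95% interval -0.63 to 0.14) and Sox10 -0.09 (-0.59 to 0.42). Gfap was higher in Cdkn1a wells on each of the 4 plates (549, 756, 1148 and 1486 CPM against 347, 684, 756 and 1190 CPM), with a log2 difference of 0.41 (SE 0.193; edgeR adjusted p = 0.975). Serpina3n, a protease inhibitor of reactive glia, stood at 377, 1527, 1542 and 1289 CPM in Cdkn1a wells and 158, 1942, 1645 and 1210 CPM in wells at 0, with a log2 difference of 0.05 (-0.39 to 0.48). Of the 7 tested genes of 15 in the reactive glia list 0 passed, with a median of 0.09.

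The other p53 targets were mostly too sparse for the test. Of the 37 targets listed beside Cdkn1a, 2 passed the filter on low counts (Btg2 and Rps27l, a ribosomal protein paralogue), and Rps27l had a log2 difference of 0.12 (95% interval -0.32 to 0.56). The counts behind the others were small. Bax, a pro-apoptotic pore protein, gave 2, 23, 9 and 14 UMIs in the Cdkn1a wells (69, 328, 148 and 251 CPM) and 16, 4, 10 and 5 UMIs in the wells at 0 (168, 88, 122 and 98 CPM), higher in Cdkn1a wells on the 3 irradiated plates and lower on the homeostasis plate. Fitted without the filter, the Bax difference was 0.63 (SE 0.403; edgeR adjusted p = 0.999). Mdm2, the ubiquitin ligase that degrades p53, gave 0, 2, 0 and 6 UMIs against 0, 0, 0 and 2, and Ccng1, a cyclin G, 2, 1, 6 and 3 against 5, 0, 5 and 2. Phlda3, an inhibitor of AKT signalling, gave 2, 10, 4 and 6 UMIs against 5, 6, 1 and 3, and Ephx1, an epoxide hydrolase, 0, 7, 3 and 5 against 3, 2, 2 and 0.

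Summed over genes, the p53 targets were higher in the Cdkn1a wells. Without Btg2 and Rps27l, which hold most of the UMIs of the list and were set aside after their values were seen, the remaining 35 genes summed to 1200, 1384, 1148 and 1486 CPM in the Cdkn1a wells and to 851, 772, 829 and 781 CPM in the wells at 0. The Cdkn1a wells were above the wells at 0 on each of the 4 plates. For these 35 genes the wells at exactly 1 UMI lay between on each plate, at 1003, 1259, 907 and 943 CPM. The whole list of 37 gave 4938, 4823, 5103 and 4977 CPM in the Cdkn1a wells, 4172, 5352, 3597 and 4165 CPM in the wells at 1 and 4096, 4391, 2937 and 2732 CPM in the wells at 0, so that on irradiated replicate 1 the wells at 1 were the highest. With Btg2 alone set aside, the wells at 1 were lower than the wells at 0 on irradiated replicate 3 (1151 against 1229 CPM). With at least 10 UMIs over these sums, 19 of the 37 genes could be followed. Of these, 4 (Ccng1, Phlda3, Ak1 and Trp53) were higher in Cdkn1a wells on all 4 plates, while 0 were lower on all 4. Trp53, which the list holds, is the gene of p53 itself. Over all 7408 genes with at least 10 UMIs, 4.54% were higher on all 4 plates and 6.37% lower. The p53 targets were not alone in this. The 14 cyclins and G1 kinases summed to 1303, 856, 1066 and 1074 CPM in the Cdkn1a wells. In the wells at 0 they summed to 893, 750, 877 and 644 CPM, lower on each plate. Of their 5 genes with at least 10 UMIs, 2 (40.0%) were higher on all 4 plates, beside 21.1% of the p53 targets. These sums have no test, and the genes were picked out of small counts.

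**Figure D4:**
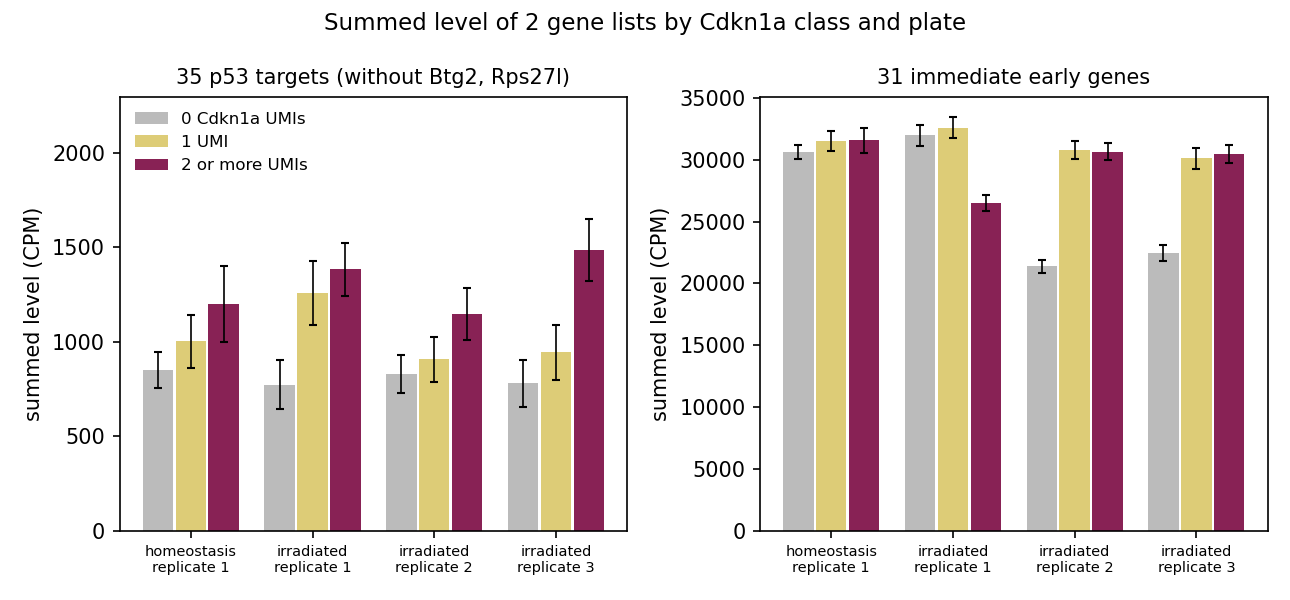
Summed level (CPM) of 35 p53 targets (left) and 31 immediate early genes (right) in wells at 0, 1 and 2 or more Cdkn1a UMIs, on the 4 plates with at least 5 Cdkn1a wells; bars are sums over all wells of the class and error bars are counting errors (square root of the UMIs). The sum of the 35 targets, left after Btg2 and Rps27l were set aside with values seen, is highest in the Cdkn1a wells on each plate; over all 37 targets the wells at 1 UMI were highest on irradiated replicate 1 (5352 against 4823 CPM).

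Immediate early genes, switched on quickly by growth factors and by tissue dissociation, were abundant in both classes. Their 31 genes summed to 31581, 26512, 30681 and 30470 CPM in the Cdkn1a wells and 30613, 31993, 21387 and 22461 CPM in the wells at 0: higher in Cdkn1a wells on 3 plates and lower on irradiated replicate 1. Of 31 genes 17 were tested, 0 passed in either direction and the median was 0.16. A positive difference was found in 12 of the 17, beside 516 of all 1061 genes tested. Fos stood at 7407, 4580, 6957 and 6141 CPM against 6574, 4589, 4875 and 5659 CPM. Nr4a1, a nuclear receptor, had a log2 difference of 0.43 (SE 0.196) and Zfp36, an mRNA decay factor, 0.40 (SE 0.185; edgeR adjusted p = 0.975 for both). In wells with exactly 1 Cdkn1a UMI against wells at 0, with all 6 plates in the fit, 1 of 865 genes passed (0.116%). It was Gadd45g, with a log2 difference of 0.59 (SE 0.126; edgeR adjusted p = 0.0334). With all wells of 1 or more UMIs pooled, 0 of 1682 genes passed (72 at an unadjusted p under 0.05), and Gadd45g had 0.52 (adjusted p = 0.374).

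Cell cycle genes gave few counts. None of the 15 proliferation genes and none of the 6 other inhibitors of cyclin-dependent kinases passed the filter. The inhibitors other than Cdkn1a summed to 68.6, 271, 115 and 215 CPM in the Cdkn1a wells and 179, 331, 146 and 195 CPM in the wells at 0. Cdkn2a, a marker of senescent cells, had 0 UMIs in all Cdkn1a wells and in all wells at 0. Cdkn2d gave 2, 9, 1 and 6 UMIs against 12, 13, 4 and 8, a lower level in the Cdkn1a wells on each plate. Ccnd2, cyclin D2, was the only tested gene of the 14 cyclins and G1 kinases (log2 difference 0.19, 95% interval -0.22 to 0.61). None of the 13 apoptosis and survival genes and none of the 18 DNA repair genes passed the filter.

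Immune and stress lists also gave no call between the classes. The numbers tested were 9 of 20 interferon-stimulated genes (median log2 difference 0.10), 5 of 8 MHC class II genes (0.17), 7 of 12 MHC class I genes (0.20), 7 of 23 chemokine and NF-kB genes (0.07), 9 of 15 heat shock genes (-0.07), 6 of 18 unfolded protein and integrated stress genes (-0.15) and 2 of 12 YAP targets (-0.11). In each of these lists 0 genes passed in either direction. Vcam1, an adhesion molecule, had 1029, 542, 607 and 752 CPM in Cdkn1a wells and 189, 706, 512 and 273 CPM in wells at 0. Its log2 difference was 0.81 (SE 0.323; edgeR adjusted p = 0.975). Ccl2, a monocyte chemokine, gave 1, 15, 39 and 46 UMIs against 13, 21, 3 and 13, higher in Cdkn1a wells on irradiated replicates 2 and 3 only, with a log2 difference of 0.99 (SE 0.516; adjusted p = 0.975). Without irradiated replicate 1, 6 genes passed: Btg2, Ccl2 (1.80), Vcam1 (1.25), Zfp36 and Ctcfl were higher and Sec61a1 was lower. Ctcfl there followed the single well barcode described above.

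Whether the difference between Cdkn1a wells and wells at 0 depended on the treatment was tested as an interaction in the same sums. Of 2237 genes 0 (0%) passed (134 at an unadjusted p under 0.05; DESeq2 0, with 8). This test had little reach, since 1 homeostasis plate entered it and 13 of 100 simulated 4-fold genes were recovered. The lowest p belonged to Shank1, Gm43743, Tmbim6, Fuca1 and Eif1b among genes with a larger difference after irradiation, and to Gm37144, Gm42856, Ctcfl, Lxn and Trip4 among those with a smaller one, with adjusted p from 0.714 to 0.727. Bax had an interaction of 2.52 (SE 1.05; edgeR adjusted p = 0.808) and Vcam1 -1.93 (SE 0.616; adjusted p = 0.736).

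Irradiation itself was read first in the wells without Cdkn1a. Among wells at 0 Cdkn1a UMIs (47, 59 and 64 homeostasis wells, 19, 33 and 21 irradiated wells), 13 of 1797 genes passed (0.723%): 12 were higher after irradiation (0.668%) and 1 was lower (0.0556%). DESeq2 also called 13, though not the same set: H2-T23, called by edgeR, had a DESeq2 adjusted p of 0.0980. In simulated counts 95 of 100 genes with a 4-fold change and 28 of 100 with a 2-fold change were recovered. Serpina3n stood at 158, 181 and 66 CPM in homeostasis and 1942, 1645 and 1210 CPM after irradiation, with no overlap, a log2 difference of 3.61 (SE 0.360; edgeR adjusted p = 2.92e-06). Npy, a neuropeptide, rose from 168, 161 and 215 CPM to 574, 756 and 507 CPM (1.78, SE 0.316; adjusted p = 0.00790). Serping1, the inhibitor of complement C1, rose from 473, 415 and 532 CPM to 1147, 1548 and 1054 CPM (1.43, SE 0.279; adjusted p = 0.0192). Fcgr2b, an inhibitory receptor for antibodies, gave 2, 0 and 2 UMIs in homeostasis and 13, 15 and 9 after irradiation (adjusted p = 0.00790). Dpysl2, a microtubule-associated protein, fell from 672, 729 and 568 CPM to 110, 305 and 215 CPM (-1.55, SE 0.334; adjusted p = 0.0251).

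Of the other 8 called genes, 5 were on immune lists. Tmem176b (log2 difference 1.43), Bst2 (2.09), Ggta1 (1.82), H2-Aa (1.73), Ifi27l2a (1.91), Ifitm3 (1.06), H2-T23 (1.64) and H2-Eb1 (1.5) were higher after irradiation in wells at 0 Cdkn1a. By list, 2 of 11 tested interferon-stimulated genes and 2 of 5 MHC class II genes passed as higher. So did 1 of 8 MHC class I genes and 1 of 7 reactive glia genes. Of 20 immediate early genes and 3 p53 targets tested, 0 passed in either direction. Positive differences, passed or not, were found in 10 of 11, 5 of 5, 8 of 8 and 7 of 7 genes of the first 4 lists. The counts were 9 of 20 immediate early genes and 2 of 3 p53 targets, beside 912 of all 1797 genes tested. Over the MHC class II list irradiated replicate 1 was the highest plate (8451 CPM in wells at 0, against 2791 and 3356 on the other irradiated plates and 1178 to 2583 in homeostasis). The same plate was highest in the Cdkn1a wells (8376 CPM, against 3052 and 3795).

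In the wells with Cdkn1a these irradiation differences had the same signs. Since homeostasis held only 1 plate with enough wells at 2 or more UMIs, wells with 1 or more UMIs (34, 11 and 8 in homeostasis, 49, 48 and 39 after irradiation) were fitted with 3 plates against 3. Of 1811 genes 1 passed (0.0552%): Serpina3n, at 228, 137 and 132 CPM in homeostasis and 1563, 1381 and 1238 CPM after irradiation, with a log2 difference of 2.96 (SE 0.338; edgeR adjusted p = 2.69e-04). All 13 genes called in the wells at 0 were tested here and all 13 had the same sign, with 1 passing. Serping1 had 1.86 (SE 0.391), H2-Aa 1.80 (SE 0.405), Npy 1.91 (SE 0.504) and Dpysl2 -0.63 (SE 0.350). For none of the 13 did the difference between the classes pass the test of the interaction at 1 or more UMIs (lowest adjusted p = 0.999; the call there, 1 of 2396 genes or 0.0417%, was Shank1). The interaction estimate pointed to a larger irradiation difference in the wells with Cdkn1a for 3 of the 13 genes. The classes were separate wells of the same plates and mice, and the share of same signs over all genes is not given here.

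**Figure D5:**
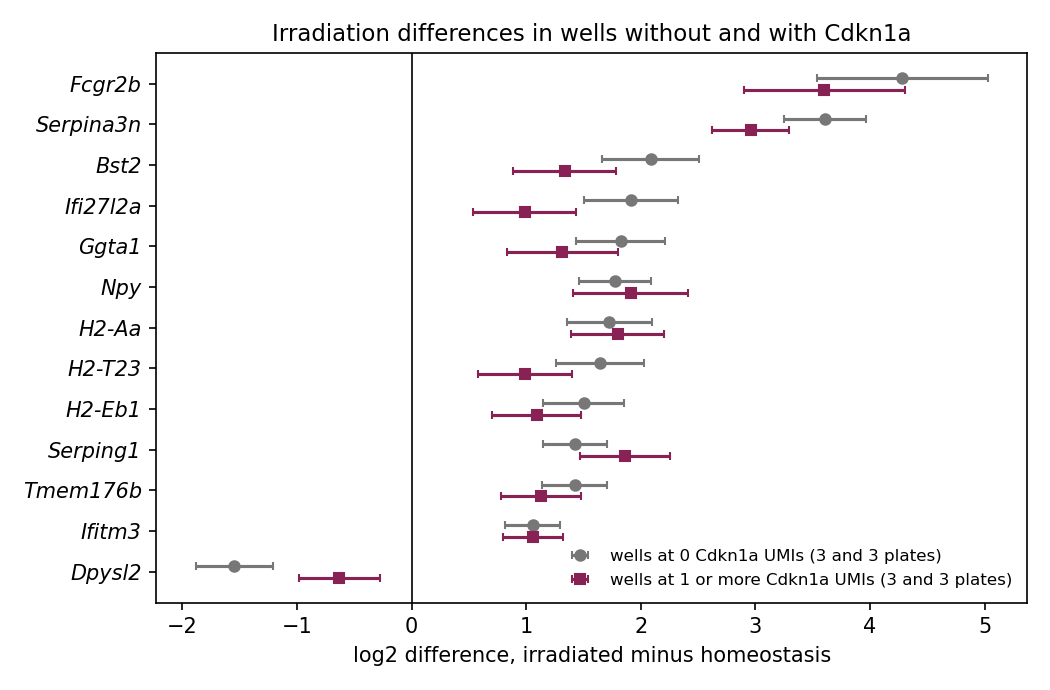
Log2 difference, irradiated minus homeostasis, with standard errors for the 13 genes called in wells at 0 Cdkn1a UMIs (grey circles) and the same genes in wells with 1 or more UMIs (purple squares), 3 plates against 3 in each. All 13 lie on the same side of 0 in both; Serpina3n (3.61 and 2.96) passed in both, and Fcgr2b rests on 4 and 2 homeostasis UMIs.

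At 2 or more UMIs the irradiated plates (28, 23 and 22 wells) were set against the single homeostasis plate with 12 wells. The lone plate was assumed to vary like the irradiated plates. Of 1884 genes 0 (0%) passed (123 at an unadjusted p under 0.05; DESeq2 0, with 33), and 18 of 100 simulated 4-fold genes were recovered. Serpina3n stood at 377 CPM on homeostasis replicate 1 and at 1527, 1542 and 1289 CPM after irradiation (2.08, SE 0.558; edgeR adjusted p = 0.339). Tmem176a (2.96, SE 0.719) and Npy (3.74, SE 0.987) had the same adjusted p of 0.339, as had Ccl2 (4.05, SE 1.09), which gave 1 UMI on the homeostasis plate and 15, 39 and 46 on the irradiated plates. Nedd4 had the next lowest p among higher genes, and Gm42856, Gm42725, G0s2, Ctcfl and Gm37144 the lowest among lower genes, with adjusted p of 0.339 to 0.367. Leaving out irradiated replicate 1 brought the count to 23 genes, in a fit of 2 irradiated plates against that single homeostasis plate, whose own spread is unknown.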

How the data were processed

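Single cells were sorted into 96-well plates and sequenced, and the authors deposited 1 table of raw UMI counts per gene and well (50508 gene models, 1150 wells, 12 plates, 5159668 UMIs). Per the submitters' processing notes, STAR 2.5.3a and featureCounts 1.5.3 were used with the builds GRCm38 and GRCh38; which settings were used, and how UMIs were collapsed, is not given in the sources used here. Plate and gate came from the labels. Replicate numbers follow accession order and pair no plates across treatments. Nothing beyond the pooled mice says how plates were prepared. The p-values of the shares and of the irradiation fits therefore measure the spread between plates. Those of the class comparison and the interaction, with the plate as a block, measure how the class difference varied from plate to plate. Doublets were not called. CD49b+ wells above 9999 UMIs (4 wells) were left out, while the CD49b- wells had no upper limit.

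Wells of a plate are not replicates, so counts were summed per plate and class (at least 5 wells per sum) and fitted with edgeR 4.0.16 (TMM, filterByExpr, quasi-likelihood F test, Benjamini-Hochberg over all genes tested, 0.05; R 4.3.3); Cdkn1a stayed in library sizes but was not tested. Standard errors are the log2 difference divided by the square root of F. DESeq2 1.42.0, other filters, thinning to 1000 UMIs (seed 7) and leaving out each plate were alternatives; those on the Ctcfl well barcode, wells at exactly 1 UMI and all plates with no minimum of wells, and the counts of direction by plate, were chosen after seeing the data. Shares were compared by exact permutation of plates (scipy 1.17.1). The fits were tested on simulated data with 100 genes changed 4-fold and 100 changed 2-fold; 5, 1, 2 and 4 unchanged genes were called in the comparison of classes, the interaction, and the irradiation fits of Cdkn1a wells and wells at 0. These simulations held no spread particular to a gene and no plate differences beyond library size, so recovery in the real counts may be lower.

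The member wells and gene lists were chosen with earlier results of these data known. The rule for named genes was: up to 10 a direction among calls of the same sign on each plate, listed p53, kinase inhibitor and immediate early genes that passed, up to 3 of each other list by lowest p, up to 5 a direction in the irradiation fits, and, where no gene passed, the 5 a direction with the lowest p. Sequences are from RefSeq (GRCm38.p6); 47652 gene names of the table matched the GENCODE vM21 annotation used for coordinates.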

Additional observations from a re-analysis of the deposited data

How the results depend on the processing

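The difference in share of Cdkn1a wells stayed positive and non-overlapping in the runs with other thresholds, depths or well filters. It was 42.5 percentage points at 1 or more UMIs, 19.3 at 3 or more and 12.2 at 2 or more after thinning to 1000 UMIs. With 1 plate left out it ranged from 26.2 points (without irradiated replicate 1) to 33.3 points (without homeostasis replicate 1), with an exact permutation p of 0.2 in each run. Leaving out plates could not bring overlap to treatments that did not overlap with all plates kept. Those runs therefore show only the size of the difference. For Cdkn1a wells against wells at 0, the count of calls went from 0 to 1 with no filter on low counts, 1 after thinning, 1 with wells at exactly 1 UMI, and 0 to 6 when 1 plate was left out (6 without irradiated replicate 1); it was 0 with no replicate block. Sec61a1 turned to 0.018 with wells of 2000 UMIs or more and Snrpb to 0.11 with wells at exactly 1 UMI. No paired analysis was possible across treatments because replicate numbers follow accession order. The interaction count was 3 with no filter, 1 at 1 or more UMIs, 2 with all plates kept, and 0 to 1 with 1 plate left out. The irradiation count in Cdkn1a wells was 4 with no filter, 1 at 1 or more UMIs, 1 with wells at exactly 1 UMI, and 3 to 23 with 1 irradiated plate left out (23 without irradiated replicate 1, 9 without replicate 3). In wells at 0 it was 4 after thinning, 5 with wells of 2000 UMIs or more, and 1 to 14 with 1 plate left out: 1 without irradiated replicate 2 (Serpina3n), 4 without homeostasis replicate 3 and 7 without homeostasis replicate 2. Serpina3n passed in all 12 alternatives there, at 3.21 to 3.92; over the 13 genes, 91 alternative values kept their call, 60 lost it and 0 turned. Fewer plates, wells or UMIs enter thinned, deep-well and left-out fits; the cause of the other moves was not tested. Members at 3 or more UMIs left no homeostasis sum, and leaving out homeostasis replicate 1 left no homeostasis plate, for the interaction and the irradiation fit at 2 or more UMIs, so these were not run. With a median of 2549 UMIs in a Cdkn1a well, 35 of the 37 p53 targets were too sparse to test between classes.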
